A study of Mus musculus with 6 samples.

Results

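The genes described here are the protein-coding subunits of the respiratory chain and of ATP synthase, with cytochrome c, the protein that carries electrons between complexes III and IV. They were chosen by symbol from the GENCODE mouse annotation on GRCm38. They were sorted into complexes by symbol, which places *Ndufa4* and *Ndufa4l2* in complex I. Members were the mt-Nd, mt-Co, mt-Cytb and mt-Atp genes, the Nduf subunits of complex I, *Sdha* to *Sdhd*, the Uqcr, Cox4 to Cox8 and Atp5 families, *Cyc1* and *Cycs*. The rule took 100 of the 54356 genes with values, of which 13 are encoded in mitochondrial DNA and 87 in the nucleus. By complex, the nuclear members number 37 in complex I, 4 in complex II, 9 in complex III, 18 in complex IV and 18 in complex V, and the remaining member is *Cycs*. The mitochondrial members number 7 in complex I, 1 in complex III, 3 in complex IV and 2 in complex V, and complex II has none. The rule names genes by symbol, so it takes in *Atp5s*, which is not a core subunit, and *Atp5o* under a pair of gene identifiers.

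RNA was sequenced from E9.5 hearts of C57BL/6 mouse embryos, 3 libraries from littermate controls and 3 from FlncgKO embryos. FlncgKO embryos are global knockouts (*Flnc*-/-) of *Flnc*, which encodes the actin-crosslinking protein filamin C. The authors obtained the knockout from a cross of floxed *Flnc* mice with *Sox2*Cre mice. They scored embryos as *Flnc*+/+, *Flnc*+/- and *Flnc*-/-. The knockout is global, so the deletion is not limited to heart muscle. The labels do not give the alleles of the controls, nor how many hearts went into a library, and they name whole hearts where the methods also allow isolated ventricles. Nothing states that each library came from a separate embryo, so p-values measure the spread between these libraries, which may be technical.

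In oxidative phosphorylation, complexes I and II take electrons from NADH and succinate, complexes III and IV pass them to oxygen, and complex V uses the resulting proton gradient to make ATP. A small set of core subunits is encoded in the mitochondrial genome, which is transcribed as long precursors that are cut at the tRNAs and polyadenylated, while all other subunits are nuclear genes whose proteins are imported. The embryonic heart at mid-gestation draws much of its ATP from glycolysis, and its mitochondria mature later.

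Libraries held 19208859 to 23123255 estimated counts. Levels are given as CPM, counts scaled to a common library total after TMM scaling, which corrects for differences in RNA composition, and differences as log2 fold changes, FlncgKO minus control, with their standard errors (SE). Of the 100 members, 96 passed the filter on low counts and were tested among 16048 genes with edgeR's quasi-likelihood test and Benjamini-Hochberg adjustment. The 4 members that did not pass were *Cox7b2*, *Cox8b*, *Cox8c* and the second gene identifier of *Atp5o*. *Flnc* itself had 844, 623 and 746 CPM in control replicates 1 to 3 and 127, 111 and 240 CPM in FlncgKO replicates 1 to 3 (adjusted p = 0.0656 by edgeR and 1.11e-06 by DESeq2). With 3 libraries against 3, the exact two-sided permutation test over libraries cannot go below p = 0.1, and every member named here whose groups did not overlap was at that value.

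All 13 mitochondrially encoded subunits had lower levels in FlncgKO hearts, and for each of them the highest FlncgKO library lay below the lowest control library. Their log2 fold changes ran from -0.98 for *mt-Nd3* to -0.32 for *mt-Co2* with a median of -0.65, beside a median of 0.009 over all genes tested. The 83 tested nuclear members had a median of -0.06, and 76 of them differed by less than 0.2 on the log2 scale. No mitochondrial member passed edgeR's test, in which the adjusted p ran from 0.0654 for *mt-Atp8* to 0.149 for *mt-Nd6*, while all 13 had an unadjusted p under 0.05. Over all genes edgeR called 0.249% lower, and 8.84% were lower at an unadjusted p under 0.05. DESeq2, the test the authors used, called 12 of the 13 lower, where it called 2.38% of all genes lower. The exception was *mt-Nd6* (adjusted p = 0.0542 by DESeq2). Groups did not overlap in this direction for 14.1% of all genes tested. The 13 genes are cut from shared precursors, so they are not 13 independent measurements.

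FlncgKO replicate 2 was the lowest of the 6 libraries for 13 of 13 genes, and control replicate 2 was the highest for 11 of 13. The FlncgKO library nearest to the controls was replicate 3 for 7 genes and replicate 1 for 6. In each gene's own counts, the gap between groups was narrowest for *mt-Co3*, whose lowest control library stood 1.06 times above its highest FlncgKO library. It was widest for *mt-Nd3* at 1.36 times. Both genes have nuclear copies, described below, so this order depends on how reads were divided. With copies added, *mt-Co3* had 2750 CPM in its lowest control and 2385 CPM in its highest FlncgKO library. For *mt-Nd3* these values were 223 and 186 CPM. Without FlncgKO replicate 3, edgeR called 7 of the 13 lower (*mt-Nd1*, *mt-Nd2*, *mt-Nd4*, *mt-Nd4l*, *mt-Cytb*, *mt-Co1* and *mt-Atp8*), where 1.73% of all genes were called lower. Without control replicate 3 it called *mt-Nd5* (adjusted p = 0.0491 by edgeR), where 0.0911% of all genes were called lower, and without any other single library it called none of the 13.

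**Figure D1:**
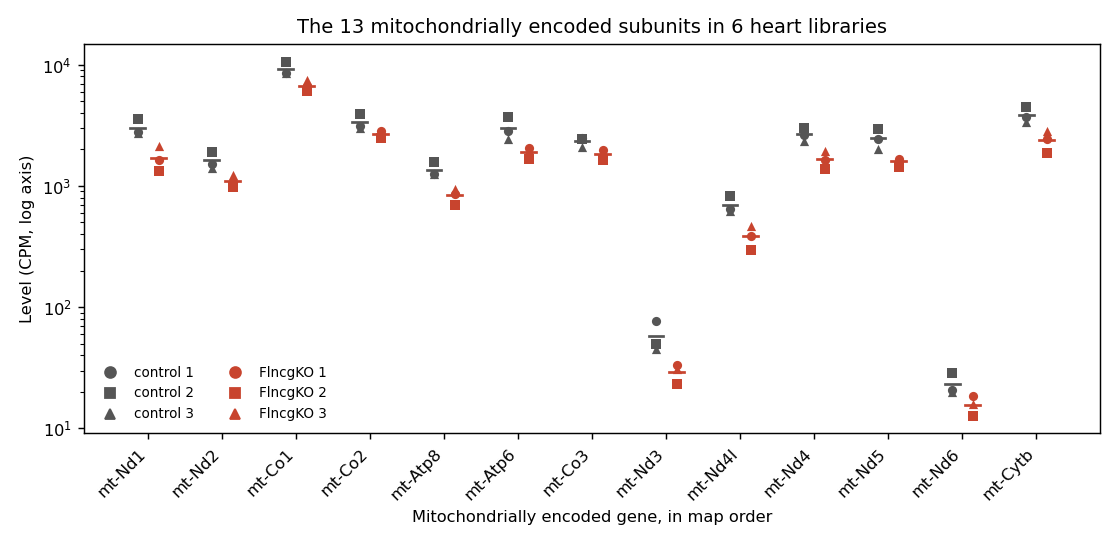
Level of each mitochondrially encoded subunit in CPM (log axis) in the 3 control (grey) and 3 FlncgKO (red) libraries, with a marker for each replicate number and a line at the group mean. For all 13 genes the red points lie below the grey ones, and FlncgKO replicate 2 is the lowest.

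Taken as a share of all counts in a library, the 13 genes made up 3.26%, 3.90% and 3.04% in control replicates 1 to 3 and 2.29%, 1.95% and 2.54% in FlncgKO replicates 1 to 3. The 87 nuclear members made up 1.27%, 1.33% and 1.26% in controls and 1.23%, 1.2% and 1.21% in FlncgKO. Both shares were lower in each FlncgKO library than in each control library, by very different amounts. The FlncgKO mean was 0.665 of the control mean for the mitochondrial genes and 0.941 for the nuclear genes. Counts from the 13 genes stood to those from the 87 in a ratio of 2.64 ± 0.260 (SD, n = 3) in controls and 1.87 ± 0.235 (SD, n = 3) in FlncgKO. On the log2 scale that ratio was 0.50 lower in FlncgKO, with library values of 1.36, 1.55 and 1.27 in controls and 0.90, 0.71 and 1.07 in FlncgKO. It is a summary over the members and was not tested.

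Markers of the cell types in a heart were read in the same libraries. The 12 cardiomyocyte markers summed to 37992 to 43275.5 CPM in controls and 35103 to 40599.6 CPM in FlncgKO, and none was at 0. Their median log2 fold change was -0.08, and edgeR called 0 of 12 in either direction while DESeq2 called *Myh7* higher and *Myh6* lower. In bulk RNA, fewer cells of a type and less RNA per cell cannot be told apart. All 10 erythroid markers had a log2 fold change above 0, with a median of 0.87, but none of the 10 was called by edgeR or DESeq2. They summed to 3189, 3100 and 9296 CPM in control replicates 1 to 3 and 8679, 7565 and 12903 CPM in FlncgKO replicates 1 to 3. The 8 megakaryocyte and platelet markers summed to 18.0 to 26.7 CPM in controls and 101 to 639 CPM in FlncgKO, with 0 of 8 called by edgeR, 8 of 8 higher at an unadjusted p under 0.05 and 8 of 8 called higher by DESeq2. Macrophage markers (2 of 5 tested) summed to 3.43 to 9.95 CPM in controls and 3.62 to 23.05 CPM in FlncgKO, with *Adgre1* and *Fcgr1* at 0 or near it. Surface ectoderm markers (4 of 5 tested) summed to 128 to 278 CPM and 245 to 506 CPM, and those of liver and yolk sac endoderm (3 of 4 tested) to 7.34 to 90.6 CPM and 4.90 to 30.3 CPM, with none called by edgeR or DESeq2. The part of these cells in the results was not tested.

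Complex I, the entry point for electrons from NADH, has 7 mitochondrial subunits, which form its membrane arm, and they had log2 fold changes of -0.98 to -0.56 with a median of -0.69. *mt-Nd1* (chrM:2751-3707, where quinone binds at the junction of the arms) had 2768, 3586 and 2749 CPM in controls and 1644, 1333 and 2127 CPM in FlncgKO. The difference was -0.83 (SE 0.198, adjusted p = 0.0944 by edgeR and 0.00695 by DESeq2), and FlncgKO replicate 3 was the closest to the controls. *mt-Nd4* (chrM:10167-11544), a proton-pumping subunit of the membrane arm, had 2644, 3033 and 2369 CPM in controls and 1640, 1375 and 1957 CPM in FlncgKO. It differed by -0.69 (SE 0.148, adjusted p = 0.0757 by edgeR). *mt-Nd5* (chrM:11742-13565), another pumping subunit, had 2462, 2952 and 2026 CPM in controls and 1684, 1431 and 1681 CPM in FlncgKO, a difference of -0.63 (SE 0.143). *mt-Nd2* (chrM:3914-4951), the third of this kind, had 1527, 1922 and 1419 CPM in controls and 1068, 976 and 1234 CPM in FlncgKO, a difference of -0.57 (SE 0.136).

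*mt-Nd4l* (chrM:9877-10173) is a small membrane subunit whose end overlaps the start of *mt-Nd4*, and it had 651, 827 and 620 CPM in controls and 386, 296 and 467 CPM in FlncgKO. Its difference of -0.87 (SE 0.198) was larger than that of *mt-Nd4*. The 2 annotated genes share a joint transcript and overlap only at chrM:10167-10173, and how reads there were divided was not tested. *mt-Nd6* (chrM:13552-14070) is the only subunit read from the other strand, and it was the least abundant of the 13 per length, with 143 ± 31.8 TPM (a level scaled for length and library total; SD, n = 3) in controls and 97.8 ± 17.2 TPM in FlncgKO. It had 20.6, 28.5 and 19.9 CPM in controls and 18.5, 12.7 and 15.7 CPM in FlncgKO. The groups were separated by 1.08 times, and its difference of -0.56 (SE 0.186) passed neither edgeR's nor DESeq2's test.

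*mt-Nd3* (chrM:9459-9806), a small subunit at the junction of the arms, had the largest difference and also the least secure counts. It had 77.4, 49.4 and 44.98 CPM in controls and 33.0, 23.2 and 30.9 CPM in FlncgKO, a difference of -0.98 (SE 0.253, adjusted p = 0.108 by edgeR). An annotated pseudogene on chromosome 1, *Gm28438* (chr1:24612775-24613119, minus strand), is a nuclear copy of this gene. Over its 345 bases it differs from *mt-Nd3* only by T3C, counted from 1 at the first base of the gene, and the 342 bases after that position are identical. The starts of both sequences are shown because the capital letter marks the only base at which they differ within the length of the copy (GENCODE M21 transcripts, GRCm38).
mt-Nd3: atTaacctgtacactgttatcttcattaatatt
Gm28438: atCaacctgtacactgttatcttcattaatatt
The quantification gave more counts to the copy than to the gene in every library. It held 3348, 4873 and 3687 counts in controls and 2714, 2828 and 2974 in FlncgKO, beside 1692, 1024 and 931 counts and 738, 526 and 592 counts for *mt-Nd3*. The copy therefore took 66.4% of the joint counts in control replicate 1 and 78.6% to 84.3% in the other libraries. With the copy added, *mt-Nd3* had 231, 285 and 223 CPM in controls and 154, 148 and 186 CPM in FlncgKO, and the difference became -0.60 (SE 0.123, adjusted p = 0.0697 by edgeR).

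*Gm28438* is part of a longer nuclear copy of mitochondrial DNA. Copies of *mt-Co2*, *mt-Atp6*, *mt-Co3*, *mt-Nd3* and *mt-Nd4* lie side by side within chr1:24611535-24615565, a stretch of 4031 bases, in the order that the genes have on the mitochondrial genome. The copies of *mt-Atp6* (*Gm10925*), *mt-Co2* (*Gm28661*), *mt-Co3* (*Gm28437*) and *mt-Nd4* (*Gm28439*) are 100% identical to the genes over the 678, 681, 783 and 876 bases matched. How counts were divided varied between libraries of a group: the copy of *mt-Atp6* took 2.05% to 17.2% of the joint counts in controls and 12.2% to 23.6% in FlncgKO, and that of *mt-Co3* 9.16% to 26.2% and 6.82% to 20.5%. With all nuclear copies of mitochondrial members added to their genes, the 13 log2 fold changes ran from -0.87 to -0.39 with a median of -0.60, and groups did not overlap for any of them. edgeR then called 0 of 13 (adjusted p 0.0649 to 0.149) and DESeq2 12 of 13. The share of all genes called in these fits is not given here, so the counts have no background beside them. The differences of *mt-Co3* and *mt-Co2* grew from -0.35 to -0.49 and from -0.32 to -0.39, and that of *mt-Atp6* went from -0.65 to -0.51.

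**Figure D2:**
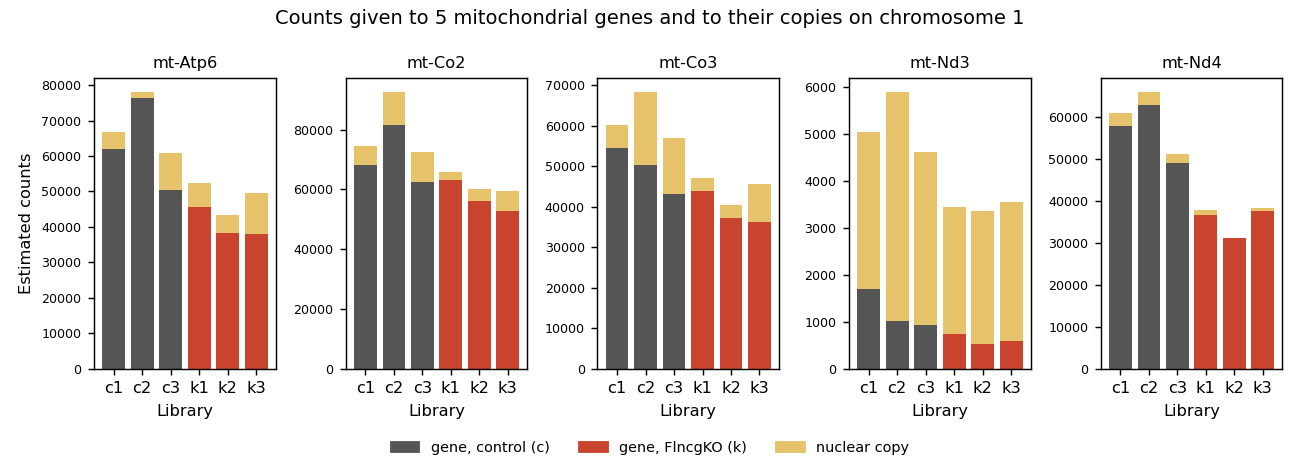
Estimated counts given to 5 mitochondrial genes (grey, controls c1 to c3; red, FlncgKO k1 to k3) and, stacked in yellow, to their nearly identical copies on chromosome 1, each panel with its own linear axis from 0. The yellow part is most of the bar only for *mt-Nd3*, and the summed bars of the FlncgKO libraries stay below those of the controls in all 5 panels.

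*mt-Cytb* (chrM:14145-15288), cytochrome b and the only mitochondrial subunit of complex III, had 3673, 4469 and 3396 CPM in controls and 2424, 1873 and 2845 CPM in FlncgKO. Its difference was -0.69 (SE 0.176, adjusted p = 0.0994 by edgeR and 7.39e-05 by DESeq2). The 3 mitochondrial subunits of complex IV, which carry the metal centres where oxygen is reduced and the core around them, had the smallest differences of the 13. *mt-Co1* (chrM:5328-6872), the catalytic subunit and the gene with the most counts, had 8563, 10598 and 8521 CPM in controls and 6623, 6093 and 7450 CPM in FlncgKO, a difference of -0.46 (SE 0.111). *mt-Co2* (chrM:7013-7696), which receives electrons from cytochrome c, had 3122, 3934 and 3022 CPM in controls and 2826, 2474 and 2752 CPM in FlncgKO, a difference of -0.32 (SE 0.109). *mt-Co3* (chrM:8607-9390) had 2499, 2433 and 2089 CPM in controls and 1965, 1639 and 1896 CPM in FlncgKO, a difference of -0.35 (SE 0.093).

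The make-up of the mitochondrial mRNAs differed between the groups. The 3 mt-Co genes made up 44.2%, 43.4% and 45.5% of all counts of the 13 genes in controls and 49.2%, 51.3% and 47.7% in FlncgKO, and the groups did not overlap. With the nuclear copies added, the shares were 45.2% ± 1.00 (SD, n = 3) and 49.3% ± 1.69 (SD, n = 3). Whether this shift differs from chance was not tested.

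The mitochondrial subunits of complex V, which form the part of ATP synthase that conducts protons through the membrane together with the nuclear Atp5g ring, were lower to a similar extent as those of complex I. *mt-Atp8* (chrM:7766-7969) had 1252, 1571 and 1265 CPM in controls and 864, 701 and 945 CPM in FlncgKO. Its difference of -0.70 (SE 0.137, adjusted p = 0.0654 by edgeR and 7.74e-07 by DESeq2) had the smallest adjusted p of the 13. *mt-Atp6* (chrM:7927-8607) had 2829, 3687 and 2433 CPM in controls and 2045, 1683 and 1978 CPM in FlncgKO, a difference of -0.65 (SE 0.163). Both are translated from a joint mRNA and share 43 bases (chrM:7927-7969), shown in capitals with 20 bases on the side that each gene has for itself, because reads that lie within this stretch fit both genes.
mt-Atp8: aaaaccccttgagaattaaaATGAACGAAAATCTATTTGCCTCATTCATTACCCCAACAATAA
mt-Atp6: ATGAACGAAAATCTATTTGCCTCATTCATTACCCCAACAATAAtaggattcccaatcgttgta
Per length, *mt-Atp8* had the highest level of all members, with 47349 ± 4406 TPM in controls and 30626 ± 2774 TPM in FlncgKO (SD, n = 3). The mean effective length used in that division was only 43.0 bases for *mt-Atp8*, against 353 bases for *mt-Atp6*, so its TPM value depends strongly on how reads at the overlap and the ends of the gene were placed. *mt-Co2* followed with 14503 ± 2020 TPM in controls, then *mt-Atp6* with 12993 ± 2740 TPM and *mt-Co1* with 12981 ± 1537 TPM, which differ by less than their spread.

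The RNAs of the mitochondrial ribosome, from the same genome, differed in opposite directions. *mt-Rnr2*, the large ribosomal RNA, had 359, 502 and 302 CPM in controls and 245, 310 and 267 CPM in FlncgKO, a difference of -0.50 (SE 0.207, adjusted p = 0.236 by edgeR). *mt-Rnr1*, the small one, had 122, 150 and 122 CPM in controls and 160, 224 and 141 CPM in FlncgKO, a difference of 0.42 (SE 0.191, adjusted p = 0.275 by edgeR). In both the groups overlapped. The libraries were made from polyadenylated RNA, and the 22 mitochondrial tRNA genes together had at most 0.0965 CPM in any library, so none was tested.

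The nuclear members were level by comparison. Of the 83 tested, 60 had a log2 fold change below 0 and 23 above, or 72.3% below, against 48.4% of all genes tested. edgeR called 2 of the 83 higher, *Ndufa4l2* and *Cox4i2*, and 0 lower, where it called 1.06% of all genes higher and 0.249% lower. Before adjustment, 10 of the 83 were lower and 4 higher with p under 0.05, beside 8.84% and 13.3% of all genes. DESeq2 called 3 higher, those genes and *Ndufv3*, and 2 lower, *Cycs* and *Atp5g3*, where it called 6.42% of all genes higher and 2.38% lower. In 16 members the FlncgKO libraries lay below all controls and in 6 above, beside 14.1% and 15.7% of all genes tested. Without FlncgKO replicate 3, edgeR called 3 higher, *Ndufa4l2*, *Cox4i2* and *Ndufv3*, where 6.05% of all genes were called higher. Medians by complex were -0.05 for complex I, -0.11 for complex II, -0.09 for complex III, 0.02 for complex IV and -0.07 for complex V. That of complex IV turned to -0.01 with total counts as the only scaling and to -0.03 without control replicate 3.

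**Figure D3:**
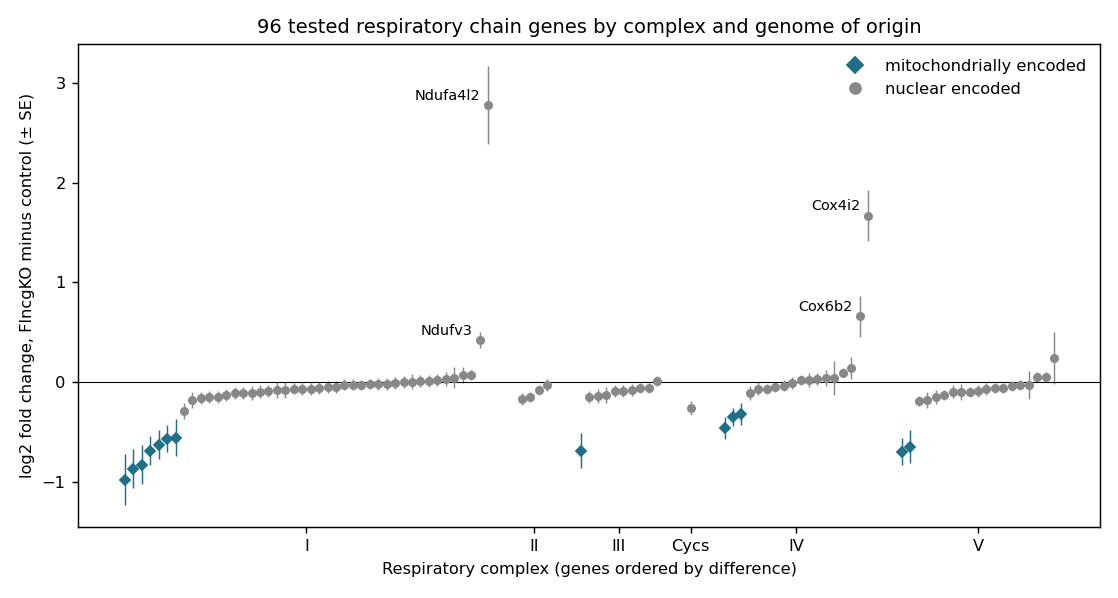
Log2 fold change (FlncgKO minus control) with its standard error for the 96 tested members, grouped by complex and ordered by size, mitochondrial genes as blue diamonds and nuclear genes as grey circles. The blue points lie between -0.98 and -0.32, most grey points lie within 0.2 of 0, and *Ndufa4l2*, *Cox4i2*, *Cox6b2* and *Ndufv3* stand above.

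**Figure D4:**
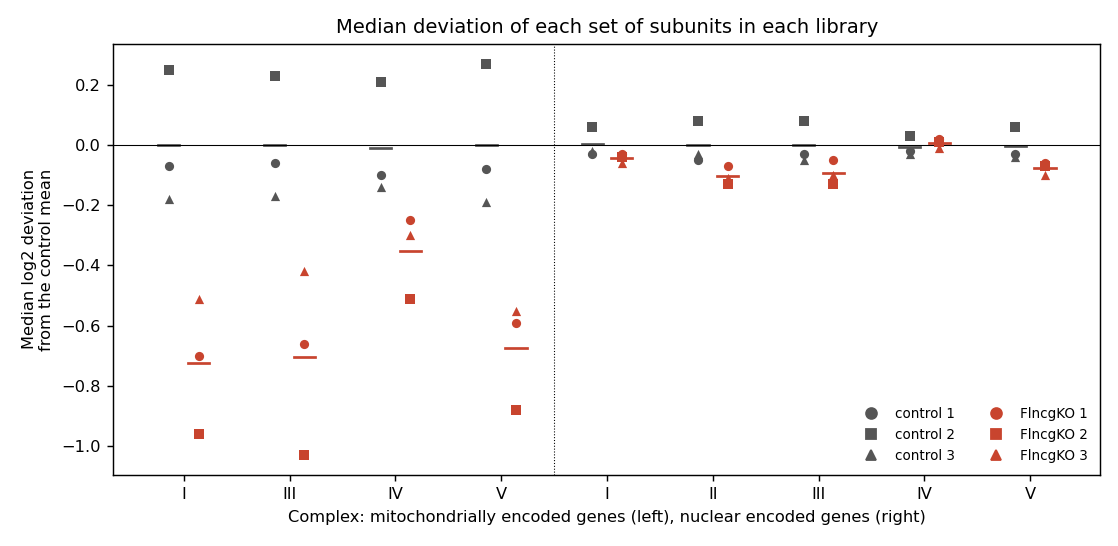
Median over the genes of each set of the log2 deviation from the gene's control mean, for each library, with mitochondrial sets on the left and nuclear sets on the right and a line at each group's mean. Mitochondrial sets lie at -0.25 or lower in every FlncgKO library, while nuclear sets stay between -0.13 and 0.08 in all 6 libraries.

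Control replicate 2, the library with the highest mitochondrial mRNA levels, was also the highest of the 3 controls in the medians of all 5 nuclear complexes, at 0.03 to 0.08 above the control mean on the log2 scale. Without control replicate 2 the median of the mitochondrial members was -0.49.

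The highest rise among all members was that of *Ndufa4l2* (chr10:127514967-127517154, plus strand), a paralogue of *Ndufa4* that is known to be induced in low oxygen and to be expressed in pericytes. It had 2.06, 2.41 and 3.96 CPM in controls and 14.3, 28.6 and 15.0 CPM in FlncgKO. All FlncgKO libraries were above all controls, FlncgKO replicate 2 most of all, and the log2 fold change was 2.78 (SE 0.391, adjusted p = 0.0415 by edgeR and 1.88e-13 by DESeq2), a 6.86-fold rise. *Ndufa4* itself, first described as a subunit of complex I and now counted with complex IV, had 124, 140 and 131 CPM in controls and 128, 130 and 121 CPM in FlncgKO. Its difference was -0.06 (SE 0.0616, adjusted p = 0.594 by edgeR). Per length, *Ndufa4l2* made up 0.651%, 0.730% and 1.16% of the TPM of the pair in controls and 4.48%, 8.55% and 4.93% in FlncgKO, so *Ndufa4* remained the main form in every library. The coding sequences of the pair are shown because the comparison rests on telling their reads apart. The sequences (GENCODE M21, GRCm38; *Ndufa4* lies at chr6:11900292-11907483 on the minus strand) are 64.2% identical over an alignment of 271 columns, and the longest run they share, in capitals, is 28 bases.
Ndufa4: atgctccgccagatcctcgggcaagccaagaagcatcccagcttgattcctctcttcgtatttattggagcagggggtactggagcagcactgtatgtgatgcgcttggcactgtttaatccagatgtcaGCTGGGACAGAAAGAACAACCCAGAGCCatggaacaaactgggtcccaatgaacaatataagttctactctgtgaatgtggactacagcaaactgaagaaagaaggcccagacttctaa
Ndufa4l2: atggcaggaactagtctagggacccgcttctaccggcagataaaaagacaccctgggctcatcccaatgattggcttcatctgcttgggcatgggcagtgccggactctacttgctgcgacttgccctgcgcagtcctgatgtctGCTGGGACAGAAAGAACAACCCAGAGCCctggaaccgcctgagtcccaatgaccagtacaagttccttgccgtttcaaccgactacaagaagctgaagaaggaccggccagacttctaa

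The second nuclear member that rose was *Cox4i2* (chr2:152754173-152765037, plus strand), the alternative form of the regulatory subunit 4 of cytochrome c oxidase, known from lung and smooth muscle and from cells in low oxygen. It had 5.40, 4.87 and 6.62 CPM in controls and 14.04, 24.9 and 14.8 CPM in FlncgKO. Again the groups did not overlap and FlncgKO replicate 2 was the highest. The log2 fold change was 1.67 (SE 0.253, adjusted p = 0.0411 by edgeR and 5.27e-08 by DESeq2), a 3.18-fold rise. The common form *Cox4i1* had 272, 294 and 266 CPM in controls and 282, 284 and 277 CPM in FlncgKO, a difference of 0.02 (SE 0.0519, adjusted p = 0.853 by edgeR). *Cox4i2* made up 1.86%, 1.58% and 2.35% of the TPM of the pair in controls and 4.54%, 7.81% and 4.85% in FlncgKO. The coding sequences of this pair are 62.9% identical over 544 alignment columns. The longest run they share, of 14 bases, is shown in capitals with 60 bases on either side, coding bases 235 to 368 of *Cox4i1* (chr8:120668222-120674207, plus strand) and 244 to 377 of *Cox4i2*, because it is the longest identical stretch of the pair.
Cox4i1: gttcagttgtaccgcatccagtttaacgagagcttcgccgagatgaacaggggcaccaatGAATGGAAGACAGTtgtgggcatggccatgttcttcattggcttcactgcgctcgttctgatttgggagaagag
Cox4i2: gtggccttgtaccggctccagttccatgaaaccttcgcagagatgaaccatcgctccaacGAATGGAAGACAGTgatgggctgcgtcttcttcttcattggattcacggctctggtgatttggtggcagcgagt

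In edgeR these calls depended on single libraries and on other settings. Without control replicates 1, 2 or 3 or FlncgKO replicate 1, edgeR's adjusted p was 0.216, 0.207, 0.0555 and 0.0678 for *Ndufa4l2* and 0.216, 0.207, 0.0726 and 0.0604 for *Cox4i2*. Without FlncgKO replicate 2 it was 0.0527 and 0.0491, and without FlncgKO replicate 3 it was 0.0291 and 0.0161. With the level of Y-linked genes as a covariate for embryo sex it was 0.337 and 0.372. With no filter on low counts *Ndufa4l2* was not called (adjusted p = 0.0743 by edgeR), and with transcript length offsets in edgeR or with limma on TPM *Cox4i2* was not (0.0535 and 0.0727). Over the fits with a library left out or the covariate the log2 fold changes stayed between 2.23 and 3.11 and between 1.22 and 1.81. DESeq2 called both with each library left out. Over all genes, edgeR called 0.577% higher without control replicate 3 and 6.05% without FlncgKO replicate 3, beside 1.06% with all libraries. Shares for the other libraries left out are not given here. Without control replicate 2, *Ndufv3* had the same adjusted p by edgeR, 0.207, as *Ndufa4l2* and *Cox4i2*, so these values are not particular to the 2 genes. Endothelial markers (10 of 10 tested) summed to 1008 to 1197 CPM in controls and 1116 to 1380 CPM in FlncgKO, and edgeR called 1 higher, *Emcn*, while DESeq2 called 4 higher and 2 lower. Markers of epicardium and mesenchyme (6 of 6 tested) summed to 149 to 190 CPM in controls and 123 to 162 CPM in FlncgKO, with none called. The part of these cells in the result was not tested.

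**Figure D5:**
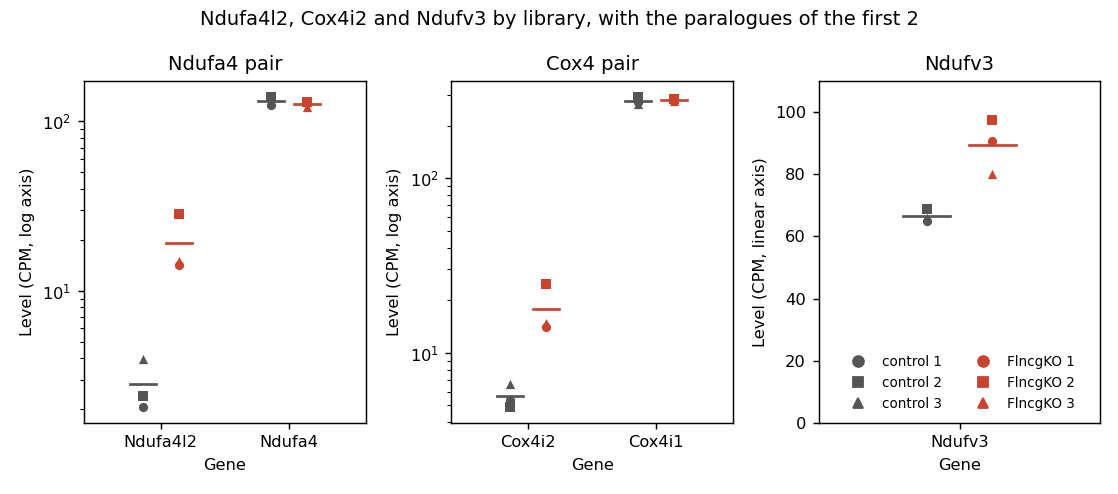
Level in CPM of *Ndufa4l2* and *Cox4i2* beside their paralogues *Ndufa4* and *Cox4i1* (log axes) and of *Ndufv3* (linear axis from 0) in each library, grey for control and red for FlncgKO, with a line at the group mean. The red points of *Ndufa4l2*, *Cox4i2* and *Ndufv3* lie above all grey ones, and those of the paralogues overlap with the grey ones.

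*Ndufv3*, an accessory subunit at the NADH-binding tip of complex I, had 65.0, 68.8 and 66.0 CPM in controls and 90.6, 97.4 and 80.1 CPM in FlncgKO. The controls lay close together and all FlncgKO libraries were higher. Its difference of 0.42 (SE 0.0786) missed edgeR's threshold at an adjusted p of 0.0501 and passed in DESeq2 at 0.000372. In edgeR it passed with no filter (adjusted p = 0.0096), with at least 10 counts in every library (0.0414), with the replicate block (0.0248) and without FlncgKO replicate 3 (0.00477). With the block edgeR called 3.19% of all genes higher, and without FlncgKO replicate 3 6.05%. Shares for the other filters are not given here. *Ndufv3* did not pass in edgeR without control replicates 1, 2 or 3 (adjusted p = 0.238, 0.207 and 0.106) or FlncgKO replicates 1 or 2 (0.11 and 0.108). Nor did it pass with the Y-linked covariate in edgeR (0.3995) or with limma on TPM (0.0902). The gene makes a short and a long mRNA, and both had more counts in FlncgKO. The long form had 603, 562 and 534 counts in controls and 949, 1030 and 632 in FlncgKO, and the short form had 747, 806 and 761 counts and 955, 1061 and 846 counts. The long form's share of the gene's counts was 42.4%, 39.4% and 39.1% in controls and 46.8%, 46.7% and 41.2% in FlncgKO. Counts grow with transcript length. Per length, the long form had 24.2, 22.7 and 21.8 TPM in controls and 36.7, 40.7 and 28.0 TPM in FlncgKO. The short form had 205, 223 and 217 TPM in controls and 254, 290 and 253 TPM in FlncgKO, so it was the main form in every library. With offsets for transcript length, the gene's difference was 0.32 (adjusted p = 0.095 by edgeR).

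Among the other nuclear subunits of complex I, *Ndufa5*, a small subunit of the peripheral arm, was the lowest. It had 40.8, 46.7 and 39.5 CPM in controls and 33.4, 34.9 and 35.7 CPM in FlncgKO, a difference of -0.29 (SE 0.0775, adjusted p = 0.0954 by edgeR and 0.0503 by DESeq2). The members with the highest level per length were *Ndufa4* and *Ndufb8*, and *Ndufb8*, a subunit of the membrane arm, had 113, 119 and 109 CPM in controls and 110, 100 and 105 CPM in FlncgKO, a difference of -0.11 (SE 0.0609, adjusted p = 0.329 by edgeR). Of the 37 nuclear members placed in complex I by symbol, *Ndufa4* and *Ndufa4l2* among them, 34 differed by less than 0.2.

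Complex II, succinate dehydrogenase, links the citric acid cycle to the chain and is built from nuclear genes alone. *Sdha*, the flavoprotein, had 357, 383 and 346 CPM in controls and 349, 333 and 347 CPM in FlncgKO, a difference of -0.08 (SE 0.053). *Sdhb*, the iron-sulphur subunit, had 133, 145 and 137 CPM in controls and 123, 126 and 127 CPM in FlncgKO, a difference of -0.15 (SE 0.0528). Of the membrane anchors, *Sdhc* differed by -0.03 and *Sdhd* by -0.17 (SE 0.0619). FlncgKO libraries lay below the controls for *Sdhb* and *Sdhd* and overlapped for *Sdha* and *Sdhc*. None passed a test, with adjusted p from 0.165 to 0.806 by edgeR and 0.107 to 0.863 by DESeq2.

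Of the 9 nuclear subunits of complex III, 8 had a log2 fold change below 0, from -0.15 to -0.06, and none passed a test. The lowest was *Uqcrh*, the hinge protein that helps cytochrome c to dock, with 160.2, 186 and 173 CPM in controls and 159.8, 154 and 154 CPM in FlncgKO (log2 fold change -0.15, SE 0.0635, adjusted p = 0.217 by edgeR). *Uqcrh* and *Uqcr10* had the highest levels per length among the nuclear subunits of this complex. *Cyc1*, cytochrome c1, which hands electrons to cytochrome c, had 250, 261 and 231 CPM in controls and 238, 208 and 226 CPM in FlncgKO, a difference of -0.14 (SE 0.0695), and the groups overlapped. *Uqcrb*, which binds near the quinone site, differed by -0.13 (SE 0.0837) and *Uqcr10* by -0.09 (SE 0.0613).

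*Cycs*, cytochrome c itself, which also triggers apoptosis when it leaves mitochondria, had 146, 156 and 141 CPM in controls and 132, 121 and 115 CPM in FlncgKO. The groups did not overlap, and the difference of -0.26 (SE 0.0696) passed in DESeq2 (adjusted p = 0.0152) and not in edgeR (adjusted p = 0.0934). DESeq2 did not call it without control replicate 1 (adjusted p = 0.1), control replicate 2 (0.172) or FlncgKO replicate 2 (0.114). The difference was more than that of any complex III or complex IV subunit in the same direction among the nuclear genes.

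Complex IV is where tissue-specific forms are most common, and *Cox6a2* and *Cox7a1*, forms typical of adult heart and skeletal muscle, lay close to their control levels. *Cox6a2*, the muscle form of subunit 6a, had 47.2, 55.1 and 40.1 CPM in controls and 42.4, 59.3 and 44.7 CPM in FlncgKO, a difference of 0.04 (SE 0.166). It made up 20.9% ± 2.39 of the TPM of the pair with *Cox6a1* in controls and 21.9% ± 3.72 in FlncgKO (SD, n = 3). *Cox7a1*, the muscle form of subunit 7a, had 15.8, 15.3 and 12.9 CPM in controls and 16.6, 17.3 and 14.5 CPM in FlncgKO, a difference of 0.14 (SE 0.114), and made up 19.8% ± 1.89 and 22.5% ± 1.83 of the pair with *Cox7a2*. The common forms *Cox6a1* and *Cox7a2* differed by -0.04 and -0.05, and the related *Cox7a2l* by 0.04 (SE 0.0776). *Cox6b2*, the testis form of subunit 6b, had 2.65, 1.98 and 2.90 CPM in controls and 3.67, 3.79 and 4.48 CPM in FlncgKO. Its groups did not overlap, but its difference of 0.66 (SE 0.205) did not pass (adjusted p = 0.121 by edgeR and 0.168 by DESeq2), and the common form *Cox6b1* differed by -0.07. *Cox8a*, the nuclear member of complex IV with the highest level per length, had 180, 176 and 177 CPM in controls and 192, 184 and 191 CPM in FlncgKO, a difference of 0.09 (SE 0.045, adjusted p = 0.305 by edgeR). For *Cox4i2*, *Cox6b2* and *Cox8a*, the 3 of 15 tested nuclear members of complex IV whose groups did not overlap, FlncgKO was higher. Groups did not overlap in this direction for 15.7% of all genes tested, and of the 3 only *Cox4i2* passed a test. *Cox8b*, the heart and muscle form of subunit 8, had too few counts to be tested, with 0.229, 0.0483 and 0.0966 CPM in controls and 0.268, 0.662 and 0.521 CPM in FlncgKO.

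Complex V had the nuclear members with the highest levels per length. The catalytic subunit *Atp5b* had 2191 ± 176 TPM in controls and 2221 ± 74.8 TPM in FlncgKO (SD, n = 3), with a log2 fold change of -0.03 (SE 0.0517) in counts. *Atp5g3*, the main gene for the c-ring that turns with proton flow, followed with 2073 ± 65.2 TPM and 1781 ± 20.5 TPM. It had 433, 456 and 431 CPM in controls and 395, 373 and 390 CPM in FlncgKO. All FlncgKO libraries were lower, and the difference of -0.19 (SE 0.0475) passed in DESeq2 (adjusted p = 0.00537) and not in edgeR (adjusted p = 0.085). *Atp5g1*, a further c-ring gene with the same mature protein, differed by -0.18 (SE 0.0789, adjusted p = 0.225 by edgeR) with overlapping groups. *Atp5f1*, of the peripheral stalk, had 320, 346 and 336 CPM in controls and 314, 305 and 296 CPM in FlncgKO, a difference of -0.13 (SE 0.0498, adjusted p = 0.182 by edgeR).

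The remaining c-ring gene, *Atp5g2*, cannot be read from its own counts. A pseudogene identical to it over 645 bases, *Gm10175*, received 2889, 2936 and 2876 counts in controls and 3074, 3460 and 2800 in FlncgKO, beside 533, 322 and 295 counts and 586, 488 and 313 counts for *Atp5g2*. Its difference was 0.24 (SE 0.262) alone and 0.10 (SE 0.0496, adjusted p = 0.289 by edgeR) with the copy added. *Ndufb4* likewise had fewer counts than its copy *Ndufb4c* in every library, and differed by 0.04 (SE 0.106) alone and -0.10 (SE 0.0965) with it. Of the 87 nuclear members, 22 had 39 annotated near-identical copies in all.

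Other genes that make, read or assemble the chain were compared by lists. Assembly factors, which build the complexes (48 of 49 tested), had a median log2 fold change of -0.07, with 37 below 0 and none called by edgeR or DESeq2. The lowest unadjusted p-values were those of *Coa7*, which acts in complex IV assembly, at -0.21 (SE 0.0657) and *Ndufaf4*, which acts in complex I assembly, at -0.33 (SE 0.107). Among 21 genes of mitochondrial DNA maintenance and transcription the median was -0.03. *Polrmt*, the polymerase that transcribes mitochondrial DNA, had 31.7, 31.9 and 31.6 CPM in controls and 26.6, 21.3 and 27.5 CPM in FlncgKO, a difference of -0.34 (SE 0.101, adjusted p = 0.114 by edgeR and 0.0723 by DESeq2). *Dna2*, a nuclease and helicase of DNA replication, differed by -0.25 (SE 0.0624) and was called lower by DESeq2 (adjusted p = 0.0403), not by edgeR (0.086).

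Genes of mitochondrial RNA processing and stability (19 tested) had a median of -0.09 and none was called by edgeR or DESeq2. *Fastkd1*, of a family that binds mitochondrial RNAs, differed by -0.28 (SE 0.0775) and *Pnpt1*, of the mitochondrial RNA-degrading complex, by -0.21 (SE 0.0613). The 78 proteins of the mitochondrial ribosome had a median of -0.10 with 63 below 0, and 17 were lower at an unadjusted p under 0.05, beside 8.84% of all genes. edgeR called none, and DESeq2 called *Mrpl12* lower, with a difference of -0.24 (SE 0.07, adjusted p = 0.0391). *Mrps31* differed by -0.27 (SE 0.0697). Among 13 regulators of mitochondrial biogenesis the median was 0.00, and *Ppargc1b*, a coactivator of oxidative metabolism, had 13.9, 15.4 and 15.5 CPM in controls and 18.4, 25.1 and 21.1 CPM in FlncgKO. Its difference of 0.53 (SE 0.124) passed in DESeq2 (adjusted p = 0.0163) and not in edgeR (0.0778). *Esrrg*, from the same list, differed by -0.26 (SE 0.0793) and passed neither test (adjusted p = 0.121 by edgeR and 0.0546 by DESeq2). Of 13 citric acid cycle genes 12 were below 0 with a median of -0.11, and *Idh3a*, a subunit of the NADH-producing isocitrate dehydrogenase, differed by -0.27 (SE 0.0673, adjusted p = 0.00503 by DESeq2 and 0.0827 by edgeR). The 13 genes of coenzyme Q synthesis had a median of -0.05, none was called, and *Coq8b* at 0.35 (SE 0.103) and *Coq2* at -0.11 (SE 0.0595) had the smallest p-values. No gene of these lists was called by edgeR, where 1.06% of all genes were called higher and 0.249% lower.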

How the data were processed

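The authors assigned reads of stranded libraries from polyadenylated RNA to mouse transcripts (GENCODE M22, GRCm38.p6) with salmon (version not given in the sources used here), and deposited estimated counts and TPM per transcript. Of the transcripts, 0.37% had no gene in GENCODE M21, with 0.108% to 0.131% of the estimated counts, and these were left out. Per gene, the deposited estimated counts of all transcripts were added up and then rounded, and the deposited TPM were added up likewise to compare levels between genes. Genes were tested with edgeR 4.0.16 in R 4.3.3 (robust quasi-likelihood test, TMM, filterByExpr with a minimum of 10 counts, Benjamini-Hochberg, threshold 0.05), and with DESeq2 1.42.0 as an alternative; the authors used DESeq2 1.22.2. The scripts were tested on simulated data. The deposited estimated counts set the precision: libraries of 19208859 to 23123255 counts. Nuclear copies are annotated pseudogenes that match a member over at least 200 bases at 95% identity or more by blastn.

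The members, the lists and the tests were chosen with earlier results of these data known. The text names all mitochondrial members, *Cycs*, *Cyc1*, the Sdh genes, every member past the threshold by edgeR or DESeq2, the 3 nuclear members per complex of smallest p and the 2 of highest TPM, and members of isoform pairs. From each list it names members past the threshold by edgeR or DESeq2, otherwise the 2 of smallest p. *Polrmt*, *Mrps31* and *Esrrg* passed neither test and are named in addition, each among the 2 of smallest p in its list. Alternatives were RLE scaling, total counts only, scaling without mitochondrial genes, other filters, offsets for transcript length, a replicate block, a Y-linked covariate, limma 3.58.1 on log2(TPM + 1), copies added, and each library left out. Values of single genes are not reported here for all members.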

Additional observations from a re-analysis of the deposited data

How the results depend on the processing

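The 13 mitochondrial members had log2 fold changes below 0 in all 37 alternatives, with a median between -0.77 and -0.48, and the median of the nuclear members lay between -0.09 and -0.03. The log2 ratio of mitochondrial to nuclear counts, -0.50 with all libraries, moved by less than the spread between replicates in each alternative run for it. The counts of calls depended on the test. Mitochondrial members called lower numbered 0 in the edgeR fit, 1 each with transcript length offsets (*mt-Atp8*), with limma on TPM (*mt-Atp8*) and with the replicate block (*mt-Nd3*), and 12 with DESeq2, with or without copies added. With 1 library left out they numbered 0 to 7 by edgeR, 0 to 10 by edgeR with copies added, 10 to 12 by DESeq2 and 11 to 12 by DESeq2 with copies added, where fits with copies added and a library left out were chosen after seeing the data, as was DESeq2 with copies added. Nuclear members called lower numbered 0 by edgeR, 2 by DESeq2 with or without copies added, and 1 to 3 by DESeq2 with a library left out, with or without copies added. Nuclear members called higher numbered 2 by edgeR, 1 with transcript length offsets, 1 with limma on TPM (*Ndufa4l2* in both), 0 with the Y-linked covariate, and 0 to 3 by edgeR with a library left out, with or without copies added. The cause was not tested. Over all genes, edgeR without FlncgKO replicate 3, the fit with 7 mitochondrial members called, called 1.73% lower and 6.05% higher. DESeq2 with all libraries called 2.38% of all genes lower and 6.42% higher. Shares of all genes are not given here for DESeq2 with a library left out or for fits with copies added. The counts of members called in those fits therefore have no background beside them.

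The sources do not say whether equal replicate numbers mark a litter or batch, and the libraries were treated as unpaired. The deviations of same-numbered libraries from their group means correlated at 0.094, 0.574 and 0.62 over genes, and control replicate 1 correlated better with FlncgKO replicate 2 (0.268) than with its own number. With the replicate block, edgeR called 1 mitochondrial member lower and 3 nuclear members higher, where 0.748% of all genes were called lower and 3.19% higher. The Y-linked covariate is nearly confounded with group, since Y-linked genes were at 3.88 and 4.28 CPM in FlncgKO replicates 2 and 3 and at 80.8 to 140 CPM in the other libraries, so sex and genotype are only partly separable. Short mitochondrial genes and genes with near-identical copies have counts that depend on how reads were divided.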
